A study of Mus musculus with 6 samples.

Results

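The unfolded protein response genes described here are a list of 33 genes chosen by name for their roles as stress sensors, as targets of the transcription factor ATF4, as chaperones and folding enzymes of the endoplasmic reticulum (ER), and as components of ER-associated degradation (ERAD). A gene was read from a probe set, the group of array probes summarised to 1 value, that carries exactly 1 gene symbol. By this rule 32 of the 33 were measured, among 22180 genes in all. The remaining one, Pdia4, which encodes a protein disulphide isomerase, shares its probe set with a microRNA gene in the platform annotation and was not analysed here. Expression was profiled in liver of 3 ErbB4-/- mice and 3 control mice, with 1 single-colour array for each animal, to ask what differs between the genotypes. The ErbB4-/- animals (ErbB4-/-HER4heart) lack the receptor tyrosine kinase ErbB4 except in the heart, where a transgene rescues them from embryonic death, and the line was crossed back to C57BL/6J. Controls are C57BL/6J animals recorded as wild type, and no sex is recorded for either group. All 6 animals carry the same carcinogen exposure, 1 dose of DEN (diethylnitrosamine, as the abbreviation is used in liver work) given on postnatal day 14, so no untreated liver stands beside them. The interval to dissection is 32 weeks for all in one label, while another gives 35, 36 and 37 weeks for ErbB4-/- replicates 1 to 3 and 32, 33 and 34 weeks for control replicates 1 to 3. If the second label holds, age and genotype go together, and the rescue transgene goes with the genotype as well.

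The ER folds secreted and membrane proteins, and hepatocytes, which secrete most plasma proteins, carry a heavy folding load. When unfolded proteins accumulate, 3 sensors in the ER membrane respond. IRE1 (gene Ern1) splices the Xbp1 message into that of an active transcription factor, ATF6 moves to the Golgi and is cleaved into one, and PERK (gene Eif2ak3) phosphorylates eIF2alpha, which lowers translation in general and raises that of ATF4. ATF6 and spliced XBP1 induce chaperones and ERAD genes, and ATF4 induces amino acid and stress genes. Array signal per gene does not show splicing, cleavage or phosphorylation, so the values below are levels of messages and not activities of the sensors.

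All values are log2 signals as deposited, each group is given as mean ± SD over n = 3 arrays, and differences are ErbB4-/- minus control. Array medians lay between 4.83 and 4.86, and having 3 arrays a group limits the precision. Erbb4 itself measured 4.75, 5.36 and 5.61 in ErbB4-/- liver and 5.42, 5.73 and 5.42 in control liver, so the ranges overlap. Which part of the gene the probes read, relative to the mutation, was not known here, and the value does not check the labels. In limma's test, adjusted by the Benjamini-Hochberg method over all 22180 genes, 1 gene passed at 0.05, namely Clca3a1 with a difference of -1.20, which is 0.00451% of the genes. ErbB4-/- replicate 3 and control replicate 1 stood farthest out on the first and second principal components. The hepatocyte marker Alb measured 14.31 to 14.33 in ErbB4-/- and 14.33 to 14.37 in control liver, near the top of the scale. Of 8 hepatocyte markers 7 were lower, with a median difference of -0.03 and a lowest one of -0.30, 1 was lower without overlap at an unadjusted p under 0.05, and none passed the test. Their mean level was 13.07 to 13.19 in ErbB4-/- and 13.13 to 13.32 in control arrays. Marker levels of some other cell types were lower in ErbB4-/- liver. Those of others had smaller median differences, -0.05 for T and NK cells and -0.11 for B and plasma cells. Stellate cell and fibroblast markers had a median of -0.18, and cholangiocyte and pancreatic acinar markers had 0.01 and 0.05. Single differences ran from -0.64 to 0.44 for T and NK, -1.53 to 0.11 for B and plasma and -0.75 to 0.10 for stellate markers. Lower without overlap were 2 of 9 T and NK, 2 of 10 B and plasma and 2 of 10 stellate markers. Higher without overlap were 1 of the 9 T and NK and 1 of 7 acinar markers, and 4.52% of all genes. All 12 Kupffer cell and macrophage markers were lower, with a mean level of 7.40 to 8.27 in ErbB4-/- arrays and 8.65 to 8.94 in control arrays, as were all 10 neutrophil markers, 4.55 to 4.95 in ErbB4-/- against 5.28 to 7.31 in control arrays, and all 10 endothelial markers, 7.05 to 8.25 in ErbB4-/- against 8.26 to 8.68 in control arrays. The endothelial level of ErbB4-/- replicate 1, 8.25, lay next to that of control replicate 1, 8.26. Lower without overlap were 10 of the 12 macrophage, 8 of the 10 neutrophil and 3 of the 10 endothelial markers. Of all genes 3.81% were. No marker of the 3 lists passed the test. In a tissue sample, fewer cells of a type and less RNA per cell cannot be told apart, and the part of these shifts in the values below was not tested.

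No unfolded protein response gene passed the test in either direction. Of the 32 measured, 16 had higher and 16 lower means in ErbB4-/- liver, where 55.1% of all genes had higher and 44.9% lower ones. The median difference was 0.01, as it was over all genes, and 23 of the 32 differed by less than 0.25 on the log2 scale. At an unadjusted p under 0.05 stood 4 members, Atf6, Hspa5, Hyou1 and Syvn1, or 12.5% of those measured, where 5.72% of all genes did (3 members higher against 2.77% of all genes, 1 lower against 2.94%). Their lowest adjusted p was 0.654 (limma), and the number at that unadjusted level ran from 1 to 7 over the alternative settings. The groups did not overlap for 2 members, Atf6, which was lower, and Syvn1, which was higher, or 6.25% of the members where 8.33% of all genes had no overlap. All 32 lay at or above the median level of all genes, so none is among the dimmest signals. The shares given for all genes include dimmer genes and are not those of genes at a like level. With the weeks of the second label as a covariate 15 of the 32 changed sign, among them Atf4 to 0.24, Asns to -0.72 and Xbp1 to 0.38, while Creld2 had 0.22, Hyou1 0.23, Dnajb9 1.14 and Ddit3 0.77. Those weeks do not overlap between the groups, so the fit parts age from genotype only by assuming a straight line over weeks. The lowest adjusted p of a member in it was 0.994 (limma), and the sign changes do not show an effect of age. The colour map of all members by array sets the 3 ErbB4-/- arrays beside the 3 control arrays.

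**Figure D1:**
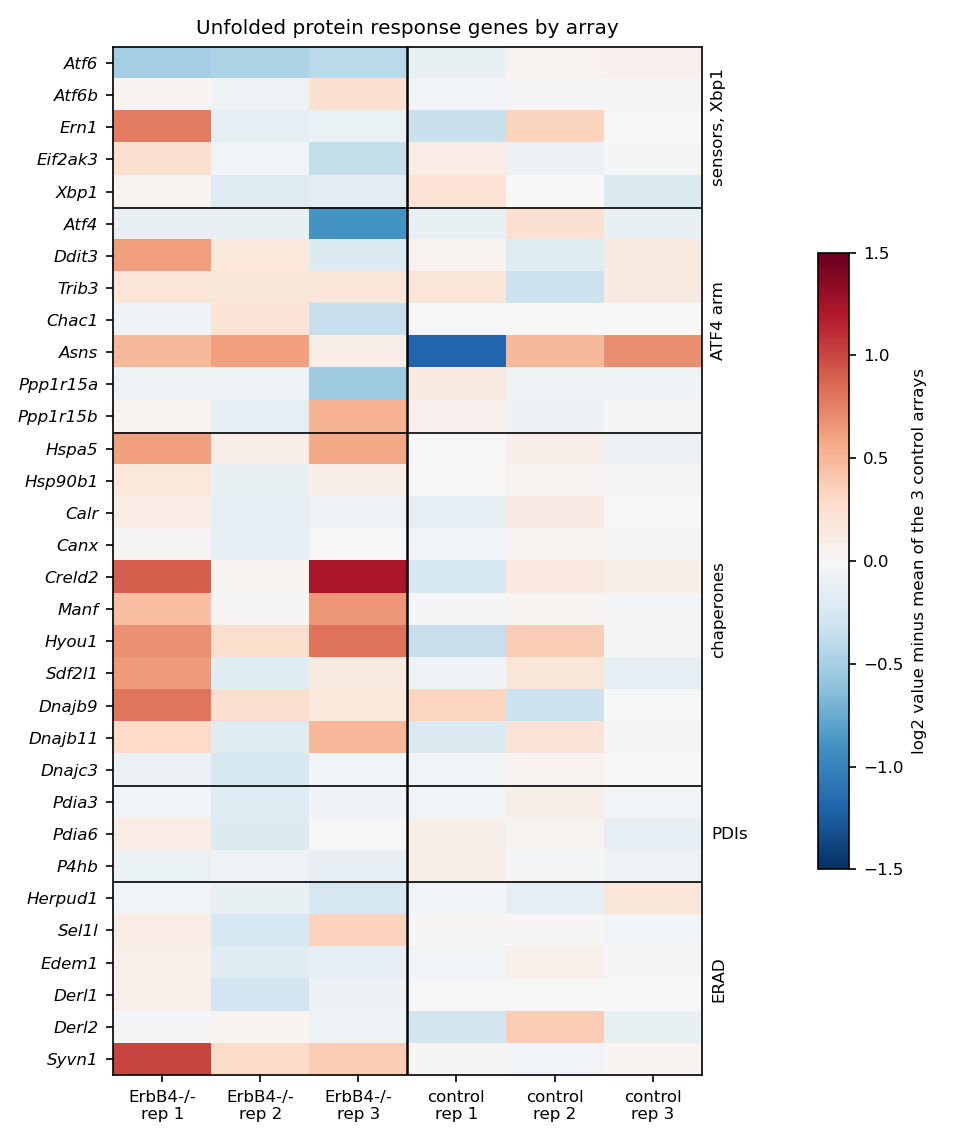
Each row is a gene, grouped by role, and each column an array, with ErbB4-/- replicates left of control replicates; colour is the log2 value minus the mean of the 3 control arrays. Atf6 is below the control mean in all 3 ErbB4-/- arrays, and Creld2, Hyou1, Hspa5 and Manf are highest in ErbB4-/- replicates 1 and 3.

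Among the sensors and the factor Xbp1, 2 of 5 were higher and 3 lower, with a median difference of -0.06. Atf6, the sensor cleaved in the Golgi, measured 8.82, 8.86 and 8.92 in ErbB4-/- liver, against 9.22, 9.38 and 9.39 in control liver. Every ErbB4-/- array lay below every control array. The means were 8.87 ± 0.05 in ErbB4-/- and 9.33 ± 0.10 in control liver, a difference of -0.47 (standard error 0.07) and a 95% interval of -0.64 to -0.30, or 0.723-fold (limma, adjusted p = 0.654). Leaving out any 1 array kept it between -0.52 and -0.44, with an adjusted p of 0.524 to 0.851, and it was -0.55 without both ErbB4-/- replicate 3 and control replicate 1. Its homologue Atf6b, a second ER-bound factor of the same type, measured 6.66 ± 0.15 in ErbB4-/- and 6.60 ± 0.04 in control liver, a difference of 0.06 with a 95% interval of -0.15 to 0.28.

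Atf6 lies on chromosome 1, and some of its neighbours in gene order also had lower values. Of the 10 measured genes on each side, 20 in all, 4 were lower without overlap and 0 higher, where 3.81% of all genes were lower and 4.52% higher without overlap. They were Dusp12, a phosphatase gene next to Atf6, with a difference of -0.44, the Fc receptor genes Fcgr4 and Fcgr3 of myeloid cells with -1.14 and -0.95, and Sdhc, a subunit of succinate dehydrogenase, with -0.16. The median of the 20 was -0.09, and their lowest adjusted p was 0.549 (limma). The genes on the other side were not among these 4. Olfml2b, the next one there, measured 5.99 to 6.02 in ErbB4-/- liver and 5.91 to 6.11 in control liver. Around Syvn1 on chromosome 19, counted the same way, the median was 0.02, and 1 of 20 neighbours, the non-coding RNA gene Malat1, was higher without overlap. These neighbours were looked up after the values of Atf6 and Syvn1 were seen.

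The other sensors overlapped between the groups. Ern1, the kinase and nuclease IRE1, measured 9.33, 8.42 and 8.46 in ErbB4-/- liver and 8.22, 8.89 and 8.56 in control liver. Only ErbB4-/- replicate 1 stood above the controls, and without it the difference of 0.18 turned to -0.11. Eif2ak3, the kinase PERK, measured 6.98 ± 0.29 in ErbB4-/- and 7.04 ± 0.10 in control liver, a difference of -0.06 with a 95% interval of -0.44 to 0.33. Xbp1, whose spliced message encodes the active factor, measured 10.57, 10.32 and 10.35 in ErbB4-/- liver, against 10.73, 10.52 and 10.30 in control liver. The difference of -0.10 had a 95% interval of -0.43 to 0.22, and without control replicate 1 it was 0.00.

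In the ATF4 arm 4 of 7 genes were higher and 3 lower, with a median difference of 0.14 that turned to -0.07 without control replicate 1 and to -0.02 without ErbB4-/- replicate 1. Atf4, the factor translated under eIF2alpha phosphorylation, measured 8.86, 8.86 and 8.07 in ErbB4-/- liver and 8.86, 9.19 and 8.85 in control liver. Only ErbB4-/- replicate 3 lay below the controls, and the difference of -0.37 (95% interval -0.98 to 0.24) was -0.11 without it. Asns, the asparagine synthetase gene and a target of ATF4, measured 7.76, 7.88 and 7.37 in ErbB4-/- liver and 6.08, 7.76 and 7.97 in control liver. Here control replicate 1 stood apart, and without it the difference of 0.40 turned to -0.20. Ddit3, which encodes the pro-apoptotic factor CHOP, measured 7.45, 6.98 and 6.61 in ErbB4-/- liver, against 6.87, 6.64 and 6.95 in control liver, a difference of 0.20 that was -0.02 without ErbB4-/- replicate 1. The 3 ErbB4-/- arrays thus spanned more than the 3 controls for Ddit3 and Atf4, and the reverse held for Asns.

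The remaining genes of the arm had differences between -0.23 and 0.19. Ppp1r15a (GADD34), the inducible subunit that directs dephosphorylation of eIF2alpha, measured 6.91, 6.91 and 6.45 in ErbB4-/- and 7.12, 6.91 and 6.92 in control liver, a difference of -0.23. Its constitutive counterpart Ppp1r15b measured 8.67 ± 0.34 in ErbB4-/- and 8.53 ± 0.07 in control liver, a difference of 0.14 (95% interval -0.29 to 0.58). Without ErbB4-/- replicate 3 the difference was -0.07 for Ppp1r15a and -0.05 for Ppp1r15b, and without both that array and control replicate 1 it was -0.00 and -0.02. Trib3, a pseudokinase gene induced with CHOP, measured 6.16 on all 3 ErbB4-/- arrays and 6.16, 5.65 and 6.11 on control arrays, and its difference of 0.19 was 0.03 without control replicate 2. Chac1, which encodes an enzyme that degrades glutathione, measured 5.95 ± 0.27 in ErbB4-/- and 6.02 on each control array. Such equal values are in the deposited table. To its 6 decimals, 2 or more arrays share a value for 10 of the 32 members and for 57.5% of all genes, so an SD of 0.00 is not a measure of the spread between animals.

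Of the 16 members with higher means 8 were ER chaperones and cochaperones. Of the 11 genes of this group 8 were higher and 3 lower in ErbB4-/- liver, with a median difference of 0.20 where all genes had 0.01, and none passed the test (adjusted p 0.760 to 0.935, limma). Hspa5 encodes BiP, the HSP70 chaperone of the ER lumen that also holds the sensors inactive. It measured 9.75, 9.24 and 9.71 in ErbB4-/- liver and 9.13, 9.24 and 9.05 in control liver. Replicates 1 and 3 of ErbB4-/- stood above all controls, and replicate 2 shared its value with the highest control. The means were 9.57 ± 0.28 in ErbB4-/- and 9.14 ± 0.10 in control liver, a difference of 0.42 (standard error 0.15) and a 95% interval of 0.05 to 0.80, or 1.34-fold.

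Hyou1, the exchange factor of BiP related to HSP110, measured 9.99, 9.57 and 10.13 in ErbB4-/- liver and 8.96, 9.68 and 9.29 in control liver. The same arrays, ErbB4-/- replicates 1 and 3, exceeded all controls. The difference was 0.59 with a 95% interval of 0.02 to 1.16, or 1.5-fold, and it was 0.30 without both ErbB4-/- replicate 3 and control replicate 1. Creld2, a secreted ER-stress protein gene, had the largest difference of the members, 0.72 with a 95% interval of -0.07 to 1.51. It measured 8.97, 8.11 and 9.30 in ErbB4-/- liver, against 7.84, 8.22 and 8.17 in control liver. Without ErbB4-/- replicate 2 its difference was 1.06, and without both ErbB4-/- replicate 3 and control replicate 1 it was 0.35. Manf, which encodes a secreted ER-resident factor that binds BiP, measured 6.95, 6.51 and 7.15 in ErbB4-/- liver and 6.48, 6.54 and 6.46 in control liver, a difference of 0.38 with a 95% interval of -0.04 to 0.79. As for Hspa5 and Creld2, ErbB4-/- replicates 1 and 3 stood above all controls and replicate 2 within their range. Without ErbB4-/- replicate 3 the difference was 0.24 for Manf and 0.46 for Creld2.

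Genes of the ER J-proteins, the cochaperones that load BiP, did not share that pattern throughout. Dnajb9 (ERdj4) measured 10.22, 9.66 and 9.57 in ErbB4-/- liver and 9.74, 9.09 and 9.41 in control liver, a difference of 0.40 with a 95% interval of -0.19 to 0.99. Dnajb11 (ERdj3) measured 8.86, 8.37 and 9.06 in ErbB4-/- liver, against 8.34, 8.75 and 8.58 in control liver, a difference of 0.20. Dnajc3 (p58IPK), which also restrains PERK, measured 10.98, 10.83 and 11.03 in ErbB4-/- liver and 11.03, 11.12 and 11.06 in control liver, a difference of -0.12. Sdf2l1, a partner of ERdj3, measured 9.21, 8.39 and 8.71 in ErbB4-/- and 8.52, 8.76 and 8.44 in control liver, a difference of 0.19. Each of the 4 overlapped between the groups. The difference of Dnajb11 was 0.06 without ErbB4-/- replicate 3 and -0.05 without both that array and control replicate 1. Without ErbB4-/- replicate 1 that of Sdf2l1 turned to -0.03 and that of Dnajb9 was 0.20.

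Hsp90b1 and the glycoprotein chaperone genes Calr and Canx were close to equal between the groups. Hsp90b1 (GRP94), the ER member of the HSP90 family, measured 12.41 ± 0.14 in ErbB4-/- and 12.36 ± 0.03 in control liver, with a 95% interval of the difference of -0.16 to 0.25. Calr, the lectin chaperone calreticulin, measured 12.34 ± 0.13 in ErbB4-/- and 12.37 ± 0.13 in control liver (interval -0.28 to 0.22). Canx, its membrane-bound relative calnexin, measured 11.54 ± 0.09 in ErbB4-/- and 11.58 ± 0.04 in control liver (interval -0.20 to 0.12). These intervals leave out a difference as large as 0.42, the value of Hspa5, in either direction. The plot of single arrays sets Calr beside the members with the largest differences.

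**Figure D2:**
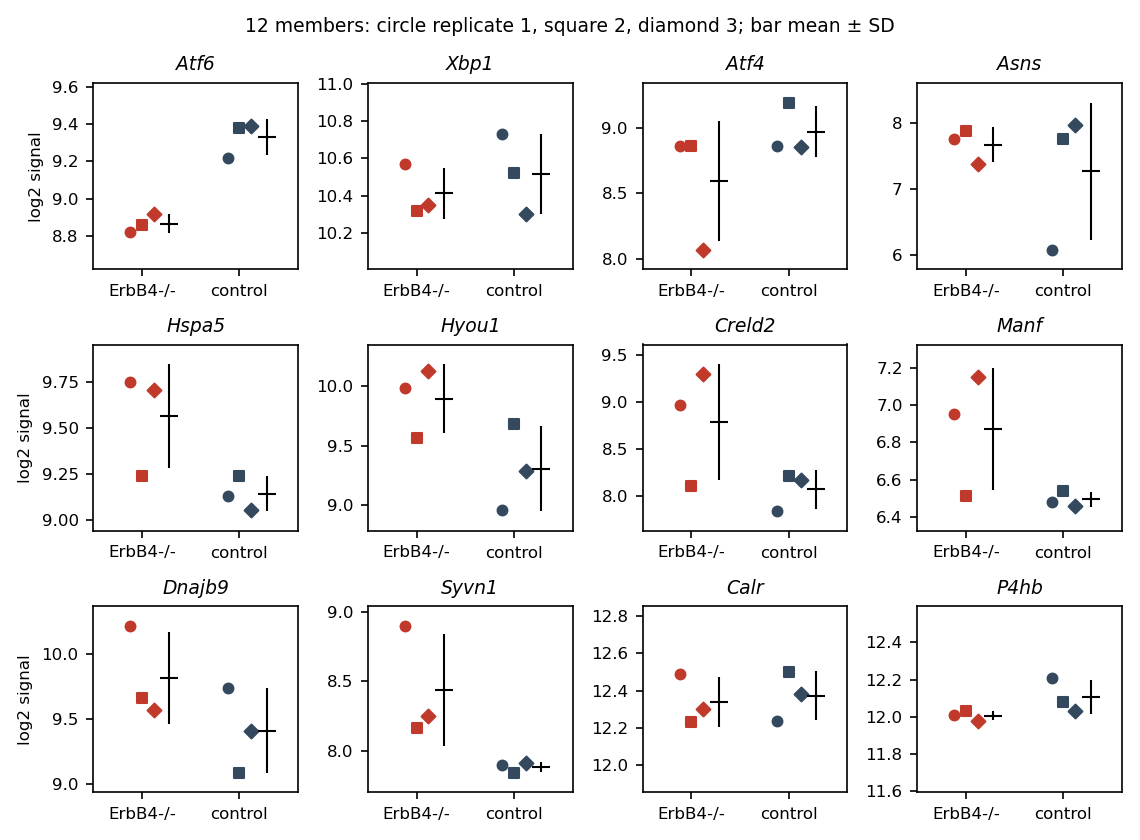
Log2 signal of 12 members on each array, ErbB4-/- left and control right, with circle, square and diamond for replicates 1, 2 and 3 and a bar for mean ± SD; each panel has its own vertical axis of at least 1 log2 unit. Atf6 and Syvn1 show no overlap, and in the panels of Hspa5, Hyou1, Creld2 and Manf the ErbB4-/- square lies within the range of the control values.

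Promoters of these genes carry the binding sites through which the response acts, and they are shown because the chaperone values differed among genes that share the same element. The ER stress response element (ERSE), bound by ATF6 with the factor NF-Y, consists of CCAAT and CCACG with 9 bases of any kind between them. It was searched on both strands of the RefSeq promoters (build GRCm38.p6), which run from 250 bases before to 50 after the gene's start. Only exact matches were counted, so a promoter without a match may hold a near form of the element, as that of Pdia3 does. Of the 32 members 27 had a promoter in that table, and 8 of the 27, or 29.6%, held the element, as did 0.137% of all 27025 genes of the table. The matches follow 5′ to 3′ on the strand that reads CCAAT first, with these letters and CCACG in capitals.

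Creld2: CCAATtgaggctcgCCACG
Syvn1: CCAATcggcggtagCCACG
Hspa5: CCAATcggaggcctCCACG
Hsp90b1: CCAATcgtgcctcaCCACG
Hsp90b1, other match: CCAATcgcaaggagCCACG
Calr: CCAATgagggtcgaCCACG
Pdia6: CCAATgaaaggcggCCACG
Canx: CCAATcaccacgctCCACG
Dnajc3: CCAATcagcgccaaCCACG

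The 8 genes with an ERSE did not move together. Creld2, Syvn1 and Hspa5 had differences of 0.72, 0.55 and 0.42, while Hsp90b1, Calr, Pdia6, Canx and Dnajc3 lay between -0.12 and 0.05. Their median difference was 0.01, and that of the 19 members with a promoter but no exact ERSE match was -0.02. Hyou1, Manf, Ppp1r15b, Derl1 and Atf6 had no promoter to search and are in neither group. Their differences were 0.59, 0.38, 0.14, -0.10 and -0.47. A related element, ERSE-II (ATTGG and CCACG with 1 base between them), was found in Dnajb11 as ATTGGcCCACG and in Herpud1 as ATTGGgCCACG, and in 0.0444% of the genes. Dnajb11 and Herpud1 are among the 19 without an exact ERSE match. The core TGACGTGG of the unfolded protein response element was in 0 of the 27 member promoters and in 0.714% of the genes. It holds the reverse complement of CCACG, which both ERSE forms hold too and which alone was in 21 of the 27 and in 35.5% of the genes. The core TTNCATCA of the site of ATF4 with C/EBP was in Asns, Chac1, Herpud1 and Trib3, 14.8% of the member promoters against 4.51% of the genes. These 4 had differences of 0.40, -0.07, -0.14 and 0.19. A match is a string in a window and was not tested as a binding site.

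The whole promoters of the 3 ERSE genes with the largest differences are given with the element in capitals, on the strand of the gene, which is the plus strand in each case. Hspa5 lies at chr2:34771840-34772139, Creld2 at chr15:88819396-88819695, where the element runs on the opposite strand, and Syvn1 at chr19:6046326-6046625.

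Hspa5: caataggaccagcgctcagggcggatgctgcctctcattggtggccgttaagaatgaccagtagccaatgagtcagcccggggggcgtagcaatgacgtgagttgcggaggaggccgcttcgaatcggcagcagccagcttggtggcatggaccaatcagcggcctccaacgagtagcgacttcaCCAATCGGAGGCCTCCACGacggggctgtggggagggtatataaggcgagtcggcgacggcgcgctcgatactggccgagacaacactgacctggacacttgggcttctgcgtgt
Creld2: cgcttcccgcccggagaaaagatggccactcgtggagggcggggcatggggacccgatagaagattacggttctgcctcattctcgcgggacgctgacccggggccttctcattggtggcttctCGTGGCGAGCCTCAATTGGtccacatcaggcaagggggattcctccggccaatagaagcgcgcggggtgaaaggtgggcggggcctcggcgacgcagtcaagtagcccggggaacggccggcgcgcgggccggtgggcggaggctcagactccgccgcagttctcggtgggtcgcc
Syvn1: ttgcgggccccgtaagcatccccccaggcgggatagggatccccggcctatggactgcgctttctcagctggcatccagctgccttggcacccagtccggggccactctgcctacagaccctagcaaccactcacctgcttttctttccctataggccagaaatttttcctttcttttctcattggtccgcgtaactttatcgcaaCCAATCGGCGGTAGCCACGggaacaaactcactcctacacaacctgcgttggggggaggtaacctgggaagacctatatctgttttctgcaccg

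**Figure D3:**
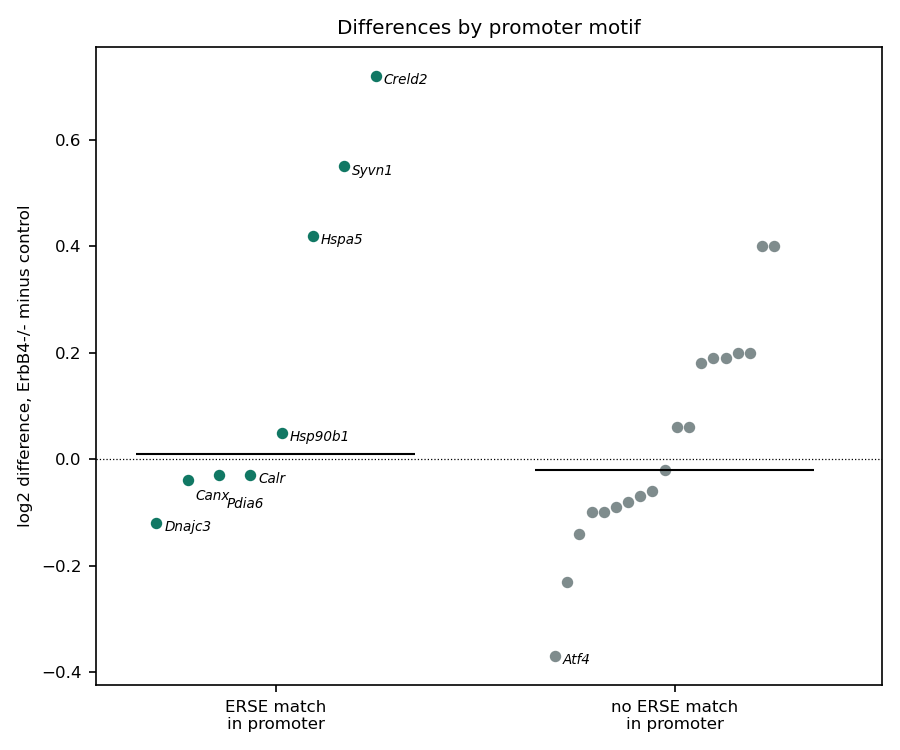
Log2 difference, ErbB4-/- minus control, of the 27 members with a promoter sequence, 8 with an ERSE match on the left and 19 without on the right; the line is the median of each. The medians are 0.01 and -0.02, and Creld2, Syvn1 and Hspa5 stand above the other ERSE genes.

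The protein disulphide isomerases, which form and rearrange disulphide bonds, differed by at most 0.10. P4hb (PDI) measured 12.01, 12.03 and 11.98 in ErbB4-/- liver, against 12.21, 12.08 and 12.03 in control liver. Its difference of -0.10 (95% interval -0.25 to 0.06) was -0.04 without control replicate 1. Pdia3 (ERp57), the partner of calnexin and calreticulin, measured 11.01 ± 0.09 in ErbB4-/- and 11.10 ± 0.08 in control liver, and Pdia6 11.16 ± 0.16 in ErbB4-/- and 11.19 ± 0.11 in control liver. All 3 had lower means, with a median difference of -0.09, and the widest of their intervals was that of Pdia6, -0.29 to 0.23.

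Of the 6 ERAD genes, which select misfolded proteins, move them to the cytosol and tag them with ubiquitin, Syvn1 had the largest difference. It encodes HRD1, the membrane ubiquitin ligase, and measured 8.90, 8.16 and 8.25 in ErbB4-/- liver, against 7.90, 7.84 and 7.91 in control liver. All ErbB4-/- arrays lay above all control arrays, replicate 1 by the widest margin. The means were 8.44 ± 0.40 in ErbB4-/- and 7.88 ± 0.03 in control liver, a difference of 0.55 (standard error 0.20) and a 95% interval of 0.05 to 1.05, or 1.47-fold (limma, adjusted p = 0.760). Without ErbB4-/- replicate 1 it was 0.32, and with week as a covariate 1.03. Sel1l, the adaptor that binds HRD1, measured 9.66, 9.28 and 9.89 in ErbB4-/- and 9.57, 9.57 and 9.50 in control liver, so that the ErbB4-/- arrays lay on both sides of the controls, and its difference was 0.06.

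The other ERAD genes had lower means by small amounts. Herpud1, a scaffold of the HRD1 complex and one of the most inducible ERAD genes, measured 11.92, 11.85 and 11.70 in ErbB4-/- liver, against 11.91, 11.82 and 12.14 in control liver, a difference of -0.14 that was -0.05 without control replicate 3. Derl1 and Derl2, subunits of the membrane channel, differed by -0.10 and -0.02, with 95% intervals of -0.35 to 0.15 and -0.45 to 0.41. Edem1, a lectin that marks misfolded glycoproteins, measured 10.14 ± 0.14 in ErbB4-/- and 10.22 ± 0.07 in control liver, a difference of -0.08. A second probe set of Edem1, with lower signal, had a difference of 0.09, and a second one of Derl2 had -0.07. The median of the 6 was -0.05, between 2 higher and 4 lower genes, and no ERAD gene other than Syvn1 was without overlap.

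**Figure D4:**
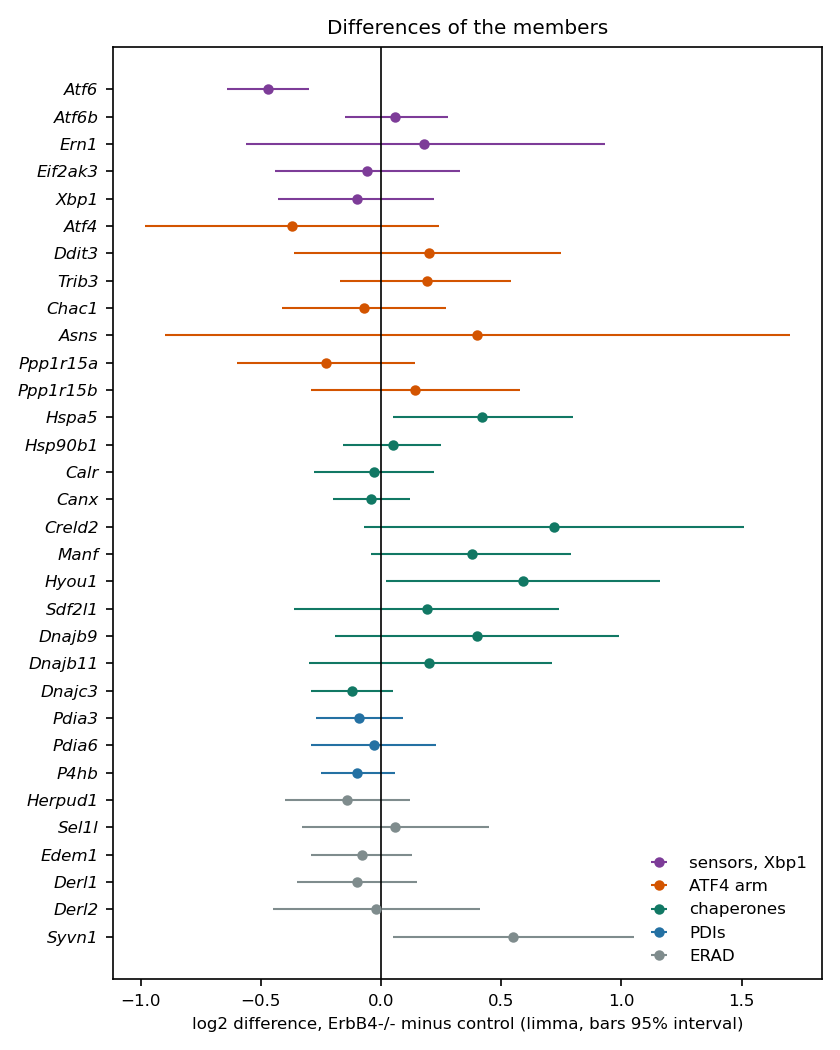
Log2 difference, ErbB4-/- minus control, of each member with its 95% interval from limma, ordered and coloured by role. The intervals of Atf6, Hspa5, Hyou1 and Syvn1 leave out 0 before adjustment, and those of the other 28 members include it.

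The ErbB4-/- arrays differed from each other in these genes more than the control arrays did. The SD over ErbB4-/- arrays was the larger one for 24 of 32 members, or 75.0%, where it was for 57.0% of all genes. The median SD of the members was 0.27 in ErbB4-/- and 0.11 in control liver, and that of all genes, which include dimmer ones, 0.12 in ErbB4-/- and 0.10 in control liver. Replicate 1 was the highest ErbB4-/- array for 17 members, or 53.1%, against 27.8% of all genes. Replicate 2 was the lowest for 20, or 62.5%, against 27.5% of all genes. Among the 11 chaperones replicate 2 was lowest for 10 and replicate 3 for the remaining one, Dnajb9. Replicate 1 exceeded every control array for 8 of the 11, replicate 3 for 6 and replicate 2 for 0, where they did so for 25.3%, 30.7% and 24.5% of all genes. In the ATF4 arm replicate 3 was the lowest for 5 of 7 genes, and it was for 31.7% of all genes. These counts describe 3 animals, and no test was made of them. The chaperone median was 0.40 without replicate 2, 0.15 without replicate 1 and 0.22 without replicate 3. The macrophage markers were lowest on ErbB4-/- replicate 3, with a mean level of 7.40. Those of B and plasma cells, of which plasma cells are rich in ER, measured 5.70, 6.04 and 5.67 on ErbB4-/- replicates 1 to 3. Control arrays had 6.09, 6.04 and 6.25. The median deviation of these markers from their own means was -0.23, 0.06 and -0.03 on ErbB4-/- replicates 1 to 3. The part of these cells in the chaperone values was not tested. The B and plasma cell markers include Derl3, itself an ERAD gene that is read in a further list below.

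Other genes of ER proteostasis were read from 6 further lists, with 121 of 132 genes measured, and none passed the test. Other ATF4 targets and eIF2alpha kinases were lower for 20 of 28, where 44.9% of all genes were lower. The 28 had a median of -0.05 and ran from -1.61 to 0.21. Those with the smallest p were Cebpb, a C/EBP factor that also belongs to the acute phase response, at 8.31 to 8.73 in ErbB4-/- and 8.98 to 9.49 in control liver, the hepatokine gene Fgf21 with a difference of -0.61, and Cebpg, a dimer partner of ATF4, with -0.25. All 3 were lower without overlap, but they were chosen by their small p, which favours that. In the whole list of 28, 4 were lower and 1 higher without overlap. Of all genes 3.81% were lower and 4.52% higher without overlap. Other folding and oxidation genes had a median of 0.00 over 19, with the thioredoxin-domain genes Txndc11, Tmx1 and Txndc5 at 0.28, -0.31 and 0.28. Other ERAD genes had 0.03 over 20, led by Derl3 at -0.39, Selenos at 0.15 and Edem2 at 0.16. Derl3 is a derlin of highly secretory cells such as plasma cells, and measured 5.89, 6.06 and 6.05 in ErbB4-/- liver, below the 6.78, 6.14 and 6.24 of control liver. Translocation and COPII transport genes had 0.04 over 25, with the signal peptidase subunit gene Sec11c at 0.28, the translocon-associated gene Ssr4 at 0.16 and Srprb of the signal recognition particle receptor at 0.14. The list of ATF6 proteases and ER-bound CREB3 factors had 0.11 over 13, with Creb3l2 at -0.22, the ATF6 protease gene Mbtps2 at -0.19 and Ern2, the epithelial form of IRE1, at 0.16.

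Heat shock genes outside the ER, the counterpart of the ER chaperones under the factor HSF1, were higher for 14 of 16 with a median of 0.20. Of all genes 55.1% were higher. Higher without overlap were 4 of the 16, and 4.52% of all genes. The 16 are cytosolic apart from Hspd1 and Hspe1, which encode mitochondrial chaperonins. Hspa1b, an inducible HSP70, measured 8.69, 8.90 and 8.55 in ErbB4-/- liver and 5.12, 6.17 and 6.57 in control liver. Its difference was 2.76 (limma, adjusted p = 0.56). Its neighbour Hspa1a, near-identical in sequence so that the probes may not tell them apart, differed by 1.50 on the log2 scale. The J-protein gene Dnajb1 differed by 0.35. For Hspa1b ErbB4-/- replicate 2 was the highest of its group, whereas it was the lowest for Hspa5. The whole list of 16 did not share the order of Hspa1b. Its median deviation from the genes' own means was 0.11, -0.01 and 0.11 on ErbB4-/- replicates 1 to 3. For the 11 ER chaperones it was 0.27, -0.14 and 0.08.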

How the data were processed

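Total RNA of mouse liver was made into biotin-labelled cDNA for Affymetrix arrays, as the labels' protocols state. The values are log2 signals, 1 for each of 41345 probe sets and 6 arrays, as deposited by the authors. Background correction, normalization and summarisation are not given in the sources used here. That the scale is log2 was read from the values, which reach 14.4. Probe sets with 1 symbol in the platform annotation numbered 23521, with several 1814 and unnamed here 16010. For 1082 genes with several probe sets, the one of highest mean over the 6 arrays was used. No filter on dim signals was applied. lmFit and eBayes of limma 3.58.1 (R 4.3.3) tested ErbB4-/- minus control, two-sided, with genotype as the only term and Benjamini-Hochberg adjustment over 22180 genes. The fit was tested on simulated data. A permutation of 3 against 3 arrays cannot reach a p under 0.10 and was not run. Members, lists and motifs were chosen with earlier results of these data known, so lists have counts and medians and no test. Non-members are named by the 3 smallest p of each list. The design text calls the replicates biological. Replicate numbers did not pair the samples, with correlations of their deviations of -0.102, 0.0345 and -0.0499. Alternatives were quantile normalization again, median centring, dim genes left out, mean of probe sets, every row, trend and robust prior, array weights, replicate block, week as a covariate, other thresholds and arrays left out. Figures were drawn with matplotlib 3.10.9.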

Additional observations from a re-analysis of the deposited data

How the results depend on the processing

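The count of 0 members past the threshold held under all 18 alternative settings, of which the threshold of 0.01 could not add a member. The single gene past the threshold over all genes was lost, with 0 genes, when every row was tested, with the replicate block, with week as a covariate, at a threshold of 0.01, without any 1 array (0 to 0) and without both ErbB4-/- replicate 3 and control replicate 1. Week, which does not overlap between the groups, was used as a covariate in 1 setting. The median difference was then 0.38 for sensors and transcription factors, 0.06 for protein disulphide isomerases and 0.12 for all members. In that fit 15 of 32 members changed sign, 2 of them among the 9 with a difference of at least 0.25. Leaving out 1 array in turn gave medians between -0.18 and 0.00 for sensors and transcription factors, -0.07 and 0.19 for the ATF4 arm, 0.15 and 0.40 for chaperones, -0.12 and -0.04 for disulphide isomerases, -0.10 and 0.01 for ERAD and -0.05 and 0.09 for all members. The replicate block cannot move these medians, such as 0.20 for the chaperones, because each replicate number holds 1 array of each group. With it no call of a member changed. Atf6, Syvn1, Hspa5, Hyou1, Creld2 and Manf kept their direction under every setting. The replicate block, every row, dim genes left out, the trend and robust prior and the thresholds cannot change a gene's estimate. The mean of probe sets cannot either for these genes, which have 1 probe set each. Their direction could change only under the other settings. No background signal was used here, so how far a low log2 value lies above background is unknown.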
